A study of Mus musculus with 2 samples.

Results

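The 6 genes described here are the mouse Otx, Gbx and Engrailed homeobox genes, Otx1, Otx2, Gbx1, Gbx2, En1 and En2. They were chosen by symbol, and all 6 were found, 1 row each, among 43346 Ensembl gene rows. The tissue was the central nervous system of embryos at day 11.5, strain C57BL/6J, with littermates of both sexes mixed, and its polyadenylated RNA was sequenced. There were 2 strand-specific libraries, biological replicates 2 and 1 of a single group, with no mutant, treated or control group. No dissection boundary stands in the labels, so how much of the hindbrain and cord each sample held is not known from them. Replicate 2 held 111687579 expected counts and replicate 1 held 126358805, of which 108007021 and 120461126 fell on Ensembl genes. All 8 markers of neural progenitors and neurons that were searched, Tubb3 and Sox2 among them, exceeded 1 TPM in both libraries. With 1 group no test between conditions was possible. An SD over n = 2 measures the spread between these samples, and an interval on a ratio covers counting error alone.

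Otx and Gbx proteins are homeodomain transcription factors that divide the early neural plate between them, with Otx2 in the forebrain and midbrain and Gbx2 in the rostral hindbrain. They repress each other where they meet, and the isthmic organizer forms at that border and secretes Fgf8 and Wnt1. The Engrailed genes are activated on both sides of the border, in the midbrain and rhombomere 1, and give the tectum and cerebellum their pattern. En1 is also known in V1 interneurons of the spinal cord and in ventral limb ectoderm, and Gbx1 in the hindbrain and dorsal spinal cord.

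The families differ in the codon for residue 50 of the homeodomain, the residue of the recognition helix that is known to set the preferred bases next to the TAAT core. The coding stretches from the tryptophan codon of position 48 are shown here because that codon separates Otx from both other families. They run 5′ to 3′ on the coding strand, from GENCODE M21 transcripts on GRCm38, with codon 50 in capitals.
Otx1 chr11:21997026-21997055 (minus): tggttcAAGaaccgccgcgccaagtgccgc
Otx2 chr14:48659294-48659323 (minus): tggtttAAGaatcgaagagctaagtgccgc
Gbx1 chr5:24504730-24504759 (minus): tggtttCAGaaccgccgggccaagtggaag
Gbx2 chr1:89928758-89928787 (minus): tggttcCAGaaccgccgggccaagtggaaa
En1 chr1:120607058-120607087 (plus): tggttcCAAaacaagcgtgccaagatcaag
En2 chr5:28170304-28170333 (plus): tggttcCAGaacaagcgggccaaaatcaag
Both Otx genes carry a lysine codon there, and the Gbx and Engrailed genes carry a glutamine codon. Over the 180 bases of the homeobox, Otx1 and Otx2 were identical at 80.0%, Gbx1 and Gbx2 at 84.4% and En1 and En2 at 83.3%. Between families the identity was 42.8 to 58.9%. With 1 transcript taken per gene, the longest run shared exactly by 2 paralogs was 18 bases for Otx, 38 for Gbx and 17 for Engrailed. All were shorter than the reads, whose length is in the labels. For Otx2 the transcript was Otx2-208, of 1033 bases, and its most abundant one, Otx2-201, of 2284 bases, was not searched.

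Otx2 was the most abundant of the 6, at 48.3 TPM in replicate 2 and 86.8 TPM in replicate 1. TPM is a level per transcript length and library, so genes can be set side by side on it. Otx2, on chr14:48657677-48673819 (minus strand, mm10), stood above 89.3% of protein-coding genes by its mean of 67.6 ± 27.2 TPM (SD, n = 2). En2, on chr5:28165694-28172166 (plus), had 14.3 TPM in replicate 2 and 45.0 TPM in replicate 1, a mean of 29.7 ± 21.7 (SD, n = 2). It had the widest relative gap between the libraries among the 6.

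Otx1, on chr11:21994764-22002897 (minus), was steadier, at 23.4 TPM in replicate 2 and 31.2 TPM in replicate 1, with a mean of 27.3 ± 5.52 (SD, n = 2). En1, on chr1:120602418-120607992 (plus), had 7.56 TPM in replicate 2 and 16.9 TPM in replicate 1, with a mean of 12.2 ± 6.58 (SD, n = 2). Both members of each of these families were lower in replicate 2. The Gbx genes ran the other way.

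Gbx2, on chr1:89927956-89931179 (minus), had 9.30 TPM in replicate 2 and 6.15 TPM in replicate 1, a mean of 7.73 ± 2.23 (SD, n = 2). Gbx1, on chr5:24502757-24527202 (minus), was the lowest, at 0.67 TPM in replicate 2 and 0.38 TPM in replicate 1, with a mean of 0.525 ± 0.205 (SD, n = 2). Its expected counts were 161 in replicate 2 and 106 in replicate 1, so it was detected in both. By mean level it stood above 33.2% of protein-coding genes, and the other 5 stood above at least 54.4%.

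**Figure D1:**
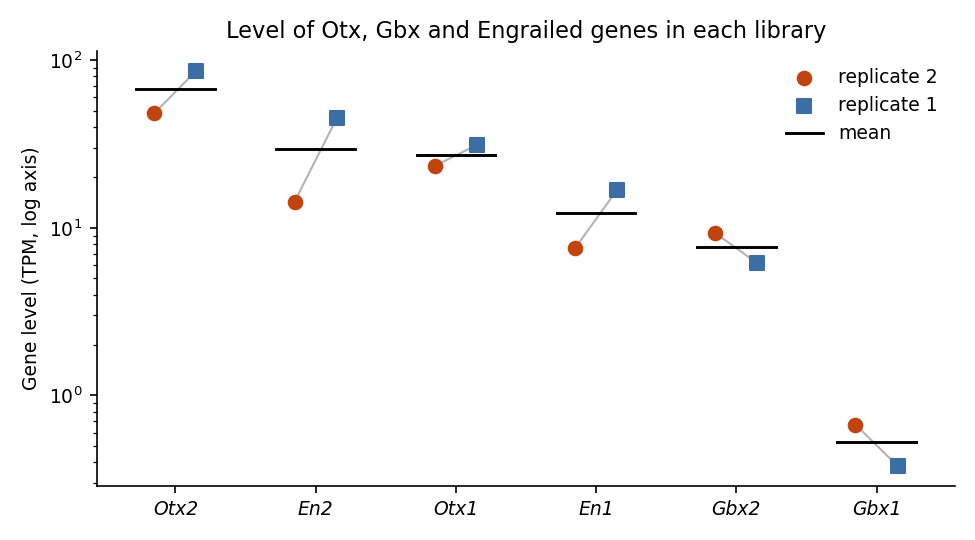
Level of each gene in TPM on a log axis, with replicate 2 as circles on the left, replicate 1 as squares on the right and the mean as a bar. Otx2 is highest in both libraries (48.3 and 86.8 TPM), Gbx1 lowest (0.67 and 0.38 TPM), and only the Gbx genes have the circle above the square.

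By mean level the order was Otx2, En2, Otx1, En1, Gbx2, Gbx1. In TPM as deposited, Otx2 lay above En2 in every pairing of libraries, since its lowest value of 48.3 TPM exceeded the highest En2 value of 45.0 TPM. That pairing across libraries was not made under another scaling. Within a library, Otx2 over En2 was 3.37 in replicate 2 and 1.93 in replicate 1. En2 and Otx1 overlapped, and so did En1 and Gbx2, so neither pair is ordered beyond its spread. Within replicate 2 the order was Otx2, Otx1, En2, Gbx2, En1, Gbx1, and within replicate 1 it was that of the means. The deposited mm9 RPKM means, from Ensembl 65 gene models, gave Otx2, Otx1, En2, En1, Gbx2, Gbx1.

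Ratios between genes inside 1 library do not depend on how the libraries are scaled. Within each family the paralogs kept fairly similar proportions. Otx2 over Otx1 was 2.06 in replicate 2 and 2.78 in replicate 1, En2 over En1 was 1.90 in replicate 2 and 2.67 in replicate 1, and Gbx2 over Gbx1 was 13.9 in replicate 2 and 16.2 in replicate 1.

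In TPM the ratios to Gbx2 moved further than those between paralogs. Otx2 over Gbx2 was 5.19 in replicate 2 and 14.1 in replicate 1. En2 over Gbx2 was 1.54 in replicate 2 and 7.31 in replicate 1. En1 was below Gbx2 in replicate 2, at a ratio of 0.813, and above it in replicate 1, at 2.74. En2 over Otx2 was 0.297 in replicate 2 and 0.518 in replicate 1. En1 over Otx2 moved less than either Otx2 over Otx1 or En2 over En1, at 0.157 in replicate 2 and 0.194 in replicate 1. Of the summed TPM of the 6 genes, Otx took 69.2% in replicate 2 and 63.3% in replicate 1, Engrailed 21.1% and 33.2%, and Gbx 9.62% and 3.50%. Spliced reads, given below, did not show the shift of Otx2 and En1 against Gbx2. They have a first and a second value that no label ties to a replicate. Their log2 ratio, second over first, was -0.95 for Gbx2, -0.93 for Otx2, -0.57 for En1 and -1.26 for En2.

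Between libraries, counts were scaled by TMM and set as log2 of replicate 2 over replicate 1, and a gene was called when it was at least 2-fold apart with a summed count of at least 100. Of the 16511 genes with that count, 11.4% were called in either direction, 6.35% higher and 5.05% lower in replicate 2. All 6 genes passed the count minimum, and 3 were called, all lower in replicate 2. The median log2 ratio of the 6 was -0.83, beside -0.01 for all genes tested. In bulk tissue, fewer cells of a type and less RNA per cell cannot be told apart.

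En2 differed most. Its expected counts were 3523 in replicate 2 and 12924 in replicate 1, a log2 ratio of -1.84 and 3.59-fold lower (3.46 to 3.73, exact 95% binomial interval). En1 had 1349 counts in replicate 2 and 3526 in replicate 1, 2.56-fold lower (2.40 to 2.73). Otx2 had 5259 counts in replicate 2 against 10872 in replicate 1, 2.02-fold lower (1.96 to 2.09), so its interval reaches across the 2-fold line.

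Otx1 had 4825 counts in replicate 2, against 7732 in replicate 1, a log2 ratio of -0.65 (-0.70 to -0.60), which is not a call. Gbx2 had 1249 counts in replicate 2, against 1000 in replicate 1, a log2 ratio of 0.35 (0.23 to 0.47). Gbx1 had a log2 ratio of 0.63 (0.27 to 1.00). Both Gbx ratios were above 0 by more than counting error, and neither was a call, though the interval of Gbx1 reached the 2-fold line.

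Directions on this scale are relative to the other genes of the library. Scaling by 55 ERCC spike-ins, RNAs added to the samples, moved the median of all genes up by 0.87 on the log2 scale, so that any ratio below 0 by less than that changes sign, in the lists too. On that scale Otx1 stood at 0.22, above 0, while Otx2, En1 and En2 stayed below 0 at -0.14, -0.48 and -0.97. Gbx1 and Gbx2 were then at least 2-fold higher in replicate 2, at 1.504 and 1.22, where 39.6% of all genes were. Spike-ins took 4.28% of TPM in replicate 2 and 6.74% in replicate 1.

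**Figure D2:**
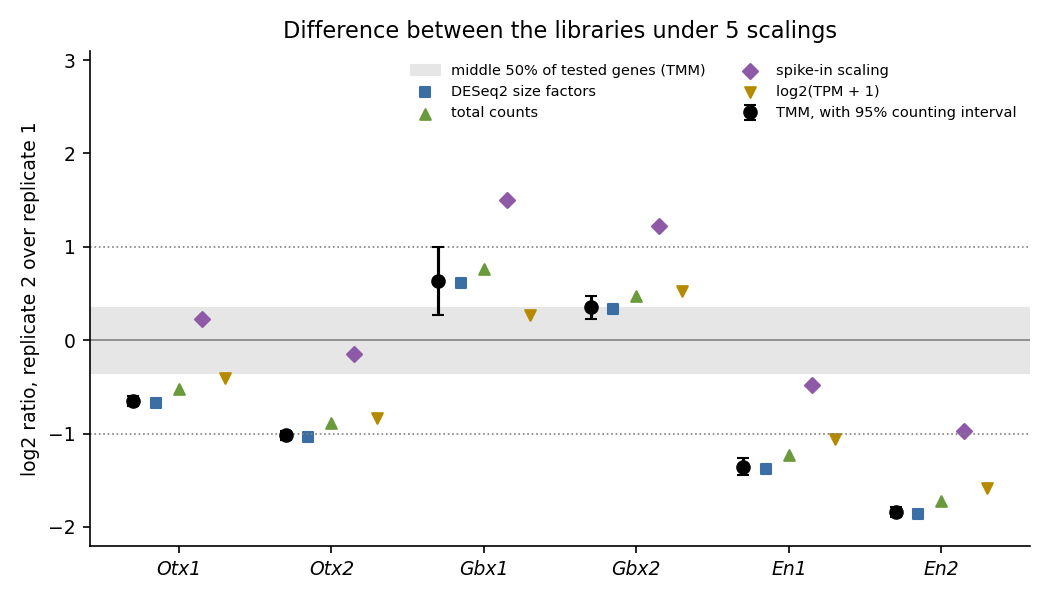
Log2 ratio of replicate 2 over replicate 1 for each gene under 5 scalings, with the exact 95% counting interval on the TMM value, dotted lines at 2-fold and a grey band for the middle 50% of tested genes under TMM. En2 is lowest under each scaling, and spike-in scaling lifts all 6, with Otx1 at 0.22 on it and at -0.65 under TMM.

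The genes that act with these 6 at the border were present in both libraries. All 20 isthmus signal and FGF response genes and all 7 isthmus transcription factor genes had at least 1 TPM in each. Fgf8, the organizer signal, had 7.21 TPM in replicate 2 and 6.97 TPM in replicate 1. Its counts ran the other way, at 373 in replicate 2 against 468 in replicate 1, a log2 ratio of -0.30 (-0.50 to -0.10), and it was not called. Wnt1, the midbrain signal just rostral to it, had 2.91 TPM in replicate 2 and 6.96 TPM in replicate 1 and was called lower, at a log2 ratio of -1.46.

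Of the signal list 0 were called higher and 2 lower, with a median log2 ratio of -0.10. The other called gene was Cnpy1, known in zebrafish for a role in FGF signalling at this border, which was also the most abundant of the list. It had 61.7 TPM in replicate 2 and 147.1 TPM in replicate 1, a log2 ratio of -1.34. Fgfr3, an FGF receptor and the next in level, had 79.6 TPM in replicate 2 and 103.3 TPM in replicate 1, and Spry4, an inhibitor of FGF signalling and the lowest, had 4.82 and 2.23 TPM.

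The Pax genes of the isthmus split. Pax5 had 5.05 TPM in replicate 2 and 10.99 TPM in replicate 1 and was called lower, at a log2 ratio of -1.36. Pax2 had 5.96 TPM in replicate 2 and 1.61 TPM in replicate 1, and Pax8 had 5.12 and 1.17 TPM, and both were called higher, at log2 ratios of 1.65 and 1.66. The deposited spliced reads have a first and a second value that no label ties to a replicate. Their log2 ratio, second over first, was -0.30 for Pax5, less than 2-fold, and 2.11 for Pax2. Outside the isthmus Pax2 and Pax8 are known in spinal interneurons and in the developing kidney.

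Irx3 and Irx2, the most abundant of that list, were called lower, Irx3 at 38.7 TPM in replicate 2 and 110.8 TPM in replicate 1. For Irx2 the log2 ratio was -1.13 by counts and -0.38 by spliced reads, second over first value. Lmx1b, which is needed for Fgf8 at the isthmus, had 9.09 TPM in replicate 2 and 25.9 TPM in replicate 1, yet its counts of 2573 and 3240 gave a log2 ratio of only -0.30. The effective length deposited for it was 3859 bases in replicate 2 and 1463 bases in replicate 1.

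The forebrain and midbrain lists held calls in 1 direction, lower in replicate 2. Of 15 forebrain genes 5 were called lower and 0 higher, with a median log2 ratio of -0.91 and 0 of 15 ratios above 0. Lhx2, the most abundant, had 94.9 TPM in replicate 2 and 156.0 TPM in replicate 1, Tcf7l2 had 79.5 and 78.4 TPM, and Hesx1, the lowest, had 0.54 and 1.32 TPM. The called gene furthest from 0 was Rax, an eye field gene, at a log2 ratio of -1.97.

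Of 14 midbrain genes 3 were called lower and 0 higher, with a median log2 ratio of -0.47. Meis2 and Mab21l2, both of the midbrain roof among other places, were the most abundant, Meis2 at 105.2 TPM in replicate 2 and 49.0 TPM in replicate 1. The called genes were Barhl1, Tal2 and Dmbx1, of which Barhl1 was furthest apart at -1.15, and the lowest gene, Pax7, had 5.62 TPM in replicate 2 and 6.19 TPM in replicate 1. Of 10 genes of midbrain dopamine neurons, whose progenitors require Otx2, 9 passed the count minimum and 8 reached 1 TPM in both libraries. Wnt5a was the most abundant, Ddc the next and Slc6a3 the lowest at 0.13 TPM in replicate 2 and 0.16 TPM in replicate 1. The only call was Pitx3, with 272 counts in replicate 2, against 9 in replicate 1, a gene also known in lens and skeletal muscle.

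Of 10 genes of rhombomere 1 derivatives, the territory of Gbx2, 1 was called higher and 3 lower. Lhx9 had 29.03 TPM in replicate 2 and 40.8 TPM in replicate 1, Fev was lowest, and the called gene furthest from 0 was Tph2 at a log2 ratio of -1.53. Caudal to rhombomere 1, 9 of 10 genes were called higher, with a median log2 ratio of 3.50. Hoxa2, the most rostral Hox gene, had 13.2 TPM in replicate 2 and 0.77 TPM in replicate 1. Hoxb3 and Hoxd3 led, and Hoxd4 was furthest apart at 5.55. Egr2 was lowest, and its call rested on 73 counts in replicate 2 against 31 in replicate 1, while its TPM was 0.41 in replicate 2 and 0.39 in replicate 1.

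All 12 trunk Hox genes were called higher in replicate 2, with a median log2 ratio of 5.25 and a summed level of 239.2 TPM in replicate 2 and 7.76 TPM in replicate 1. Hoxc6 and Hoxa9 led, Hoxc9 was lowest and Hoxb9 was furthest apart at 7.17. All 11 markers of trunk mesoderm and limb were also called higher, with summed levels of 187.6 TPM in replicate 2 and 22.6 TPM in replicate 1 and none at a count of 0. Prrx1 and Myog led and Myf5 was lowest. Myod1, which defines muscle, was furthest apart and had 2364 counts in replicate 2 and 21 in replicate 1. The part of these caudal and mesodermal genes in the ratios of the 6 genes was not tested.

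V1 interneurons are the spinal cells in which En1 is known. Of 12 V1 and inhibitory interneuron genes 3 were called higher and 1 lower, with a median log2 ratio of 0.08. Lhx1 and Gad1 led that list, Lhx1 at 25.5 TPM in replicate 2 and 27.9 TPM in replicate 1, and the glycine transporter gene Slc6a5 was furthest apart at 4.55. Of 13 corepressor and cofactor genes, which bind these homeodomain proteins or related ones, 2 were called higher, Meis1 and Tle2, and 0 lower. Ldb1 and Aes led that list and Pknox1 was lowest. Meis1 had 69.7 TPM in replicate 2 and 20.5 TPM in replicate 1.

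**Figure D3:**
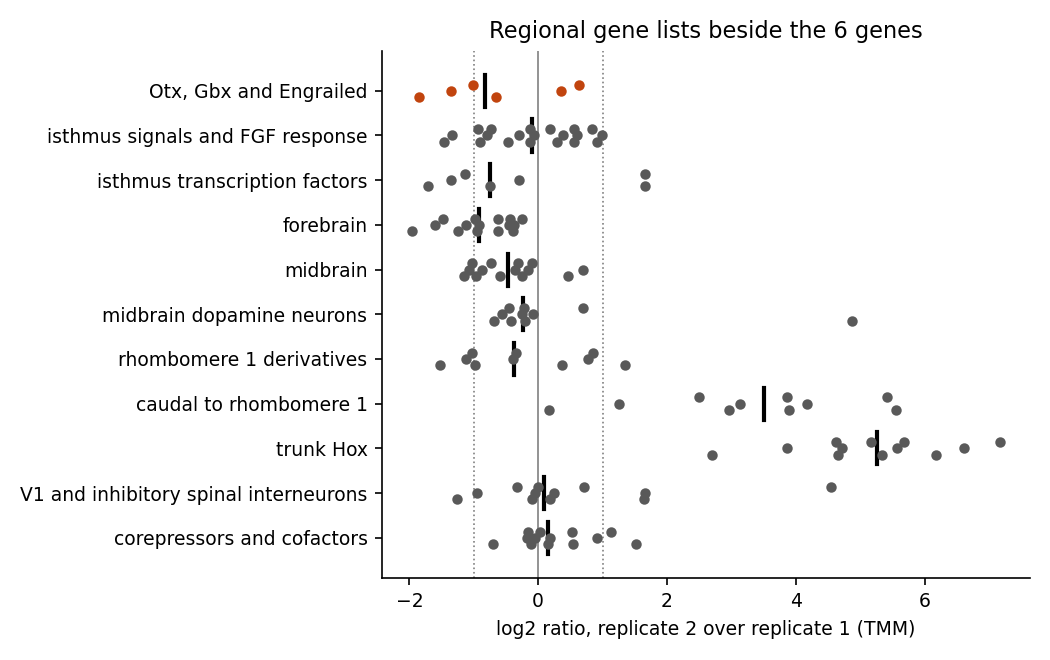
Log2 ratio of replicate 2 over replicate 1 under TMM for the 6 genes and each gene of 10 lists, with the list median as a black bar and dotted lines at 2-fold. The 6 genes have a median of -0.83, the forebrain list of -0.91, and the trunk Hox list of 5.25.

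By nearness of log2(TPM + 1) in both libraries, among 160 genes of the lists, Otx1 lay closest to Emx2 and Lhx1 and Otx2 to Sox2 and Irx2. Gbx1 lay closest to Egr2 and Hoxb1, Gbx2 to Epcam and Gata3, En1 to Six3 and Nkx2-1, and En2 to Tal2 and Gad1. The distance ran from 0.11 for Otx1 and Emx2 to 0.69 for En2 and Gad1. With 2 libraries this measures likeness of level at 2 points only.

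Otx2 has several starts. The reference annotation gives it upstream first exons, an internal first exon used by the transcript Otx2-201, and a start next to the start codon exon used by Otx2-204. Windows of 300 bases around the upstream start of Otx2-208 and around the internal start are shown because spliced reads and transcript TPM gave these starts different weights. They are RefSeq windows on GRCm38.p6, minus strand, 5′ to 3′. Capitals mark TAATTA, the core that glutamine-50 homeodomains favour, and TAATCC, the site of lysine-50 homeodomains such as Otx, searched on both strands, so that TAATCC can be written as GGATTA.
Otx2 upstream start, chr14:48667595-48667894: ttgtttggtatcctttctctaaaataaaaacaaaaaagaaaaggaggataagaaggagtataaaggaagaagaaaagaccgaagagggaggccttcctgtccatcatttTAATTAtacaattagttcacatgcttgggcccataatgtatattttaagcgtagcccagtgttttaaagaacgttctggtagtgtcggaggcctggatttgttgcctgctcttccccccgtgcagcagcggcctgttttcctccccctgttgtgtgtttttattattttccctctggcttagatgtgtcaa
Otx2 internal start, chr14:48665060-48665359: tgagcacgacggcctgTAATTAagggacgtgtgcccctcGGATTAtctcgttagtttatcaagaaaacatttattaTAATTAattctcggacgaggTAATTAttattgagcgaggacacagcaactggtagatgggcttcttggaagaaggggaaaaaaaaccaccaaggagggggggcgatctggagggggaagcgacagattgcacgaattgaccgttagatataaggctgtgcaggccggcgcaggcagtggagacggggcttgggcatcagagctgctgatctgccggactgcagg
The upstream window held TAATTA at 1 place and TAATCC at 0. The internal window, whose start lies 3 bases from that of Otx2-201, held TAATTA at 3 places and TAATCC at 1, and none of these overlap. Of 32851 promoter windows of the same length, 5.29% held TAATTA and 7.06% held TAATCC. The other 2 Otx2 windows and the windows of Gbx2 and En1 held neither. A match here is a match of letters only.

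In transcript TPM, Otx2-201 took 31.6% of Otx2 in replicate 2 and 36.9% in replicate 1, Otx2-204 took 24.7% and 25.1%, and Otx2-208 took 12.4% and 21.04%. Otx2-202 differed most, at 18.9% in replicate 2 and 3.09% in replicate 1, and Otx2-207 was listed at 0 in replicate 2 and took 10.9% in replicate 1. Expected counts moved these shares, with a mean over the libraries of 48.8% for Otx2-201, against 34.2% by TPM, and 9.66% for Otx2-208, against 16.7%. In the mm9 RPKM Otx2-204 took 31.2% in the second value and 7.07% in the first. Among the transcripts that splice into the start codon exon, Otx2-201 took 42.3% of TPM in replicate 2 and 49.2% in replicate 1.

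Spliced reads gave another picture. The deposited mm9 junction list holds a first and a second value per junction, which no label ties to a replicate. Of 991 reads spliced into the start codon exon, 877 came from the upstream exons, 88.5% (86.3 to 90.4, exact 95% binomial interval), and 86 came from the internal exon of Otx2-201, 8.68% (7.0 to 10.6). The share of the internal exon was 8.28% in the second value and 8.85% in the first. Junction reads into that exon numbered 991 and reads spliced out of it 2103. Both values of the junction list lie below both TPM shares of Otx2-201, and the cause was not tested.

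A further choice lies at the next exon of Otx2, which is 24 bases longer in Otx2-202 and Otx2-207. The added bases, at chr14:48661451-48661474 on mm10, are in capitals, with 30 bases on each side, and the short form is printed under the long one.
Otx2 long form: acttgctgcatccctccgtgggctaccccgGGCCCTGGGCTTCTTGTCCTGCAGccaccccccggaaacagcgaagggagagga
Otx2 short form: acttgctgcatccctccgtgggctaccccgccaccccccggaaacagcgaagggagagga
Of 2103 reads spliced into this exon, 423 used the long form, 20.1% (18.4 to 21.9), with 20.6% in the second value and 19.9% in the first. Transcript TPM gave the long form 19.0% in replicate 2 and 13.98% in replicate 1. A length of 24 bases is a multiple of a codon, so the reading frame is kept.

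The leading transcript of Otx1 depended on the table. In mm10 TPM Otx1-201 took 88.4% of its TPM in replicate 2 and 73.8% in replicate 1, and Otx1-203, annotated as a retained intron, took 9.85% and 18.1%. In expected counts Otx1-203 took 17.8% in replicate 2 and 31.8% in replicate 1. In the deposited mm9 RPKM Otx1-201 took 40.4% in the second value and 69.8% in the first, and Otx1-203 took 46.3% in the second value, above Otx1-201, and 26.2% in the first. Of 1071 reads at the first splice of Otx1, 61 came from the distal first exon of Otx1-202, 5.70% (4.38 to 7.26), with 2.46% in the second value and 6.86% in the first. Gbx2-201 took 87.5% of Gbx2 in replicate 2 and 94.0% in replicate 1, with the other 12.5% and 6.02% on a retained intron transcript. En1, En2 and Gbx1 have 1 transcript each in the deposited tables.

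**Figure D4:**
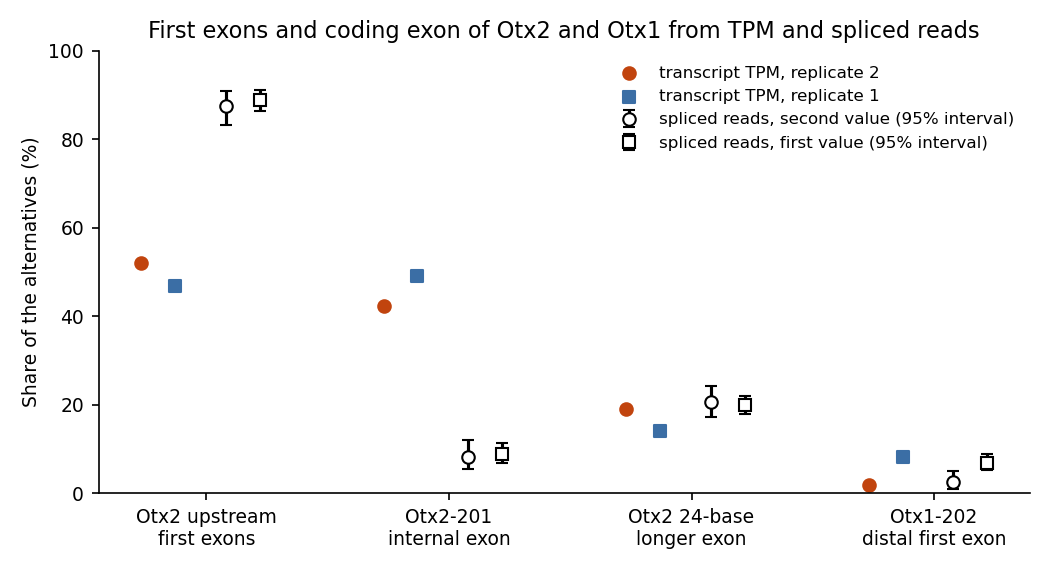
Share in percent of 4 transcript choices, from transcript TPM (filled, replicate 2 as circles, replicate 1 as squares) and from spliced reads (open, second value as circles, first value as squares, with exact 95% binomial intervals). Among transcripts that splice into the start codon exon, the internal first exon of Otx2 takes 42.3% and 49.2% of TPM. It takes 8.28% and 8.85% of spliced reads into that exon. The 24-base longer exon lies near 20.1% in spliced reads and at 19.0% and 13.98% of TPM.

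Spliced reads also give a view of the libraries that does not use gene counts. In the deposited mm9 gene RPKM, the second value over the first was 0.293 for En2, 0.423 for En1, 0.506 for Otx2 and 0.635 for Otx1, and 1.42 for Gbx2 and 1.65 for Gbx1, the same sides of 1 as replicate 2 over replicate 1 in mm10. For annotated junctions, scaled by junction totals of 57754886 in the second value and 72242374 in the first, 5 of the 6 genes had log2 ratios of the same sign as their counts, of which Gbx1 rested on 11 reads in the second value and 2 in the first.

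En2 had 148 spliced reads in the second value and 444 in the first, a log2 ratio of -1.26 (-1.54 to -0.99). En1 had 98 and 183, at -0.57 (-0.95 to -0.22). For both, the interval lay above the count ratio, -1.84 for En2 and -1.35 for En1. Otx2 had 1502 and 3573, at -0.93, and Otx1 had 873 and 2062, at -0.92. Of the genes called by counts, En2 alone was at least 2-fold apart by spliced reads, while En1 and Otx2 were not. The log2 ratio of Gbx1 was 2.52 with an interval of 0.59 to 6.00.

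Gbx2 was the exception in sign. Its single annotated junction had 126 reads in the second value and 306 in the first, a log2 ratio of -0.95 (-1.27 to -0.65), while its gene counts gave 0.35 and its mm9 RPKM 1.42-fold higher. The difference between the spliced and the count ratio was -1.31, and only 0.288% of 13192 genes with at least 100 reads on each measure lay at or below it. Their median difference was 0.19. Among 2874 genes whose count ratio was at least that of Gbx2, 7 had a spliced ratio at or below its own. Gbx2 was therefore higher in replicate 2 by gene counts, and in the second value by RPKM, but lower in the second value by spliced reads.

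**Figure D5:**
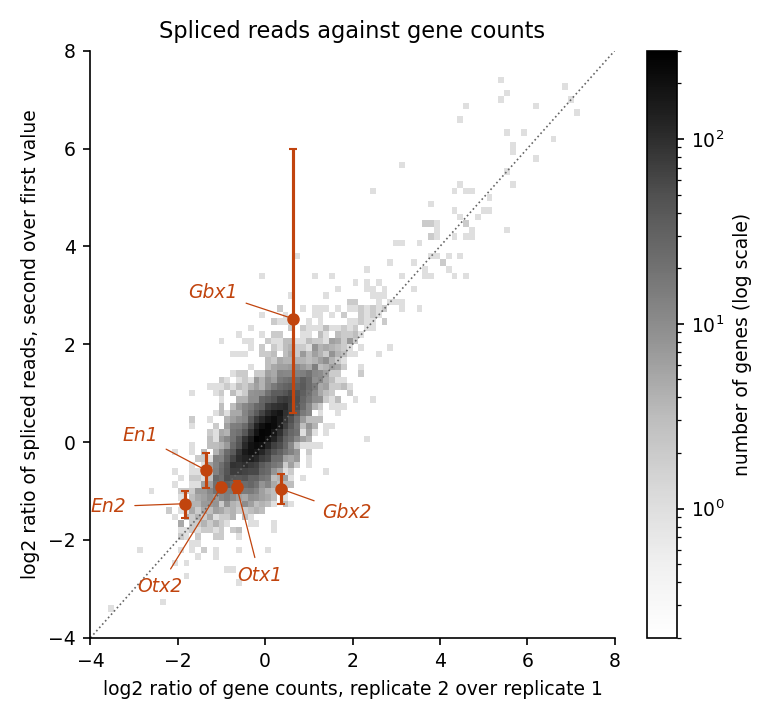
Log2 ratio of annotated spliced reads, second over first value, against the log2 ratio of gene counts, replicate 2 over replicate 1, with 13192 genes in grey (4 lie beyond the axes) and the 6 genes in red with exact 95% binomial intervals on the spliced ratio. Gbx2 lies at the lower edge of the cloud at 0.35 and -0.95, and Otx1, Otx2, En1 and En2 lie at the lower left.

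Antisense RNA lies across part of Gbx2, and across parts of Otx1, Gbx1, En2 and En1 too. Deposited mm9 contigs, which pool both replicates, were read over the mm9 span of each gene. They covered 89.998% of the Gbx2 span on its own strand and 59.4% on the other strand. The highest level was 1.66 in sense and 0.417 in antisense. At Otx1 the highest antisense level was greater, at 0.619 beside 6.42 in sense, and at Gbx1 it was 0.128 beside 0.261. The mm9 span of Gbx2 has 5329 bases and is longer than its mm10 span, so the 59.4% is not a share of the mm10 gene. D130058E05Rik, annotated on the other strand and overlapping Gbx2 by 946 bases on mm10, had 152 counts in replicate 2, against 204 in replicate 1, a log2 ratio of -0.39. The libraries are stranded per the labels, but whether gene counting used strand is not given in the sources used here. Spliced reads on the strand opposite Gbx2 numbered 9 in the second value and 6 in the first. Opposite Otx1 they numbered 4 in the second value and 22 in the first. The part of antisense RNA in the Gbx2 ratios was not tested.

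Contigs covered 100% of the mm9 Otx2 span in sense and 0% in antisense. That span has 9966 bases, ends at the start of Otx2-208 and is shorter than the mm10 span. Sense cover was 99.6% for Otx1 and En2, 94.7% for En1 and 74.2% for Gbx1, and antisense cover was 38.7% for Otx1, 27.1% for Gbx1, 13.2% for En2 and 2.60% for En1. Otx2os1, a long noncoding RNA opposite Otx2 whose gene overlaps the mm10 span by 5112 bases, had 52 counts in replicate 2, against 181 in replicate 1, a log2 ratio of -1.76. It was called lower, as Otx2 was, at 1.29 TPM in replicate 2 and 3.14 TPM in replicate 1. Otx2os1 begins at 48668708 on mm10, beyond the Otx2-208 start at 48667644, so the contig cover of Otx2 did not reach their overlap. Spliced reads on the strand opposite Otx2 numbered 15 in the second value and 52 in the first.

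Other genes within 10 kb were few. Ehbp1, 2931 bases from Otx1, had a log2 ratio of -0.70, beside -0.65 for Otx1. Agap3, 710 bases from Gbx1, had a log2 ratio of -0.57, and Asb10, on its other side, had 111 counts in replicate 2, against 53 in replicate 1, a log2 ratio of 1.09. The small nuclear RNA gene Gm23469 near Otx2 was at a count of 0 in both libraries. Among deposited genes matched to a position, none lay within 10 kb of En1 or En2.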

How the data were processed

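Polyadenylated RNA of the embryonic central nervous system was measured in 2 libraries of 1 group. The authors deposited an expected count (an estimated count that need not be whole), TPM and FPKM per gene and transcript on mm10 with annotation M4, per the file headers and notes. The aligner, quantifier and use of strand in counting were not given in the sources used here. FPKM was not used for any result. For both libraries together the authors also deposited RPKM values on mm9 for Ensembl 65 genes and transcripts, a junction list with read counts from each replicate, and contigs with a pooled coverage signal, per the file headers. No label ties their first and second values to a replicate. The 2 builds were linked by identifier only.

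Symbols and positions came from GENCODE M21 by identifier, which matched 42462 of 43346 rows. Rows named by a number only (3 counts in replicate 2, 44 in replicate 1) and spike-ins stayed out of the scaling. Expected counts were rounded. Libraries were scaled by TMM over all Ensembl rows in edgeR 4.0.16 (size ratio 0.979), with DESeq2 1.42.0 size factors, total counts, 55 spike-ins with at least 100 counts, log2(TPM + 1) and a prior count of 5 as alternatives to the prior of 0.5. Intervals are exact 95% binomial (scipy 1.17.1) and cover counting error only. The TMM scaling and the 2-fold call were tested on simulated data, in which the changed genes were split evenly between directions. That test therefore cannot check the scaling where changes run in a single direction, as in the trunk Hox list.

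The 6 genes and the 16 lists were chosen with earlier results of these data known. All 6 genes were named. From each list the 2 highest and the lowest by mean TPM, and the called gene furthest from 0, were named, with 8 genes named by role. Also named were the 2 nearest genes by level and genes within 10 kb. Not every gene so chosen is reported here. Dmbx1 and Tle2 were named after their values were seen. Proteins were not analysed here, and promoters were read for 3 of the 6 genes, from RefSeq.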

Additional observations from a re-analysis of the deposited data

How the results depend on the processing

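Of 96 values recomputed from both libraries, 52 were scored as the same and 44 as moved. Levels, ratios and shares were the same within the spread or counting interval of the reported value, and ranks when equal. Counts of called genes were the same within 1.5-fold, so 2 under spike-in scaling was scored as the reported 3, though the direction differed. A change of sign was scored for called genes only, with 0 found. Of the others, Otx1 changed sign under spike-in scaling and Gbx2 by spliced reads. Leaving out 1 of 2 libraries returns the value of the other, given in the report, and is no check of a level, ratio or share. No paired analysis was possible because there is 1 group. With replicate 1 left out, and with replicate 2 left out, Otx1 and En2 ranged between places 2 and 3 of the 6 levels and Gbx2 and En1 between places 4 and 5, and mm9 RPKM put Otx1 at 2 and En2 at 3. Total counts and log2(TPM + 1) moved the median of all genes by 0.13 and 0.12 against TMM. For log2 ratios, total counts gave -0.52 for Otx1, -0.89 for Otx2, 0.48 for Gbx2, -1.23 for En1 and -1.72 for En2, and log2(TPM + 1) gave -0.40, -0.83, 0.53, -1.06 and -1.58 in the same order. Spike-in scaling gave 0.22 for Otx1, -0.14 for Otx2, 1.504 for Gbx1, 1.22 for Gbx2, -0.48 for En1 and -0.97 for En2. On that scale 2 genes were called higher and 0 lower, against 39.6% and 0.921% of all genes. Spliced reads, an alternative chosen after seeing the data, gave -0.92 for Otx1, -0.93 for Otx2, 2.52 for Gbx1, -0.95 for Gbx2, -0.57 for En1 and -1.26 for En2. At 1.5-fold 5 genes were called, 1 of them higher, against 29.1% of all genes, and at 3-fold 1 gene, En2, lower, against 3.99%. Under log2(TPM + 1) Otx2 was no longer called, and 2 genes were called lower, against 2.77% of all genes. Counts not per length gave ratios of 1.24 for Otx2 over Otx1, 8.56 for Gbx2 over Gbx1, 0.323 for En1 over En2 and 0.892 for En2 over Otx2. The mm9 RPKM means gave 7.10 for Gbx2 over Gbx1 and 17.8 for Otx2 over Gbx2. Spliced reads gave 88.5% for the upstream Otx2 exons against 49.3% of TPM, 8.68% for Otx2-201 against 45.8%, 1.31% for Otx2-203 against 4.91%, and 20.1% for the longer exon against 16.5%. These TPM shares of first exons are among the transcripts that splice into the start codon exon. In the whole gene Otx2-201 took a mean of 34.2% of TPM. The causes were not tested. Gbx1, with 161 counts in replicate 2 and 106 in replicate 1, has the widest interval, and depth limits its spliced reads most.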

Other observations

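Markers of other cell types bear on what the libraries held. All 8 markers of neural progenitors and neurons were above 1 TPM in both libraries, led by Tubb3 and Fabp7. Of these, 2 were called lower in replicate 2, and Nes, a progenitor filament gene, was furthest apart at 72.2 TPM in replicate 2 and 233.1 TPM in replicate 1. The log2 ratio of Nes was -1.90 by counts and -0.69 by spliced reads, second over first value. Sox1 was the lowest, at 11.02 TPM in replicate 2 and 25.3 TPM in replicate 1.

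Of 3 liver and yolk sac markers all 3 were called lower in replicate 2, with a summed level of 307.0 TPM in replicate 2 and 764.5 TPM in replicate 1. Apoa1 was furthest apart, at a log2 ratio of -2.12, and Afp and Alb led. Of 7 eye and choroid plexus markers 1 was called, Ttr, at 45.7 TPM in replicate 2 and 132.3 TPM in replicate 1. Tyr and Crx, the lowest, did not pass the count minimum. Of 5 surface ectoderm markers Trp63 and Grhl2 were called higher, and Krt8 and Krt18 led. Of 5 blood and vessel markers 0 were called, Hba-a2 was the next in level, Gata1 the lowest, and Hbb-y led at 13866 TPM in replicate 2 and 8740 TPM in replicate 1. The part of these cell types in the ratios of the Otx, Gbx and Engrailed genes was not tested.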
